A study of Equus caballus with 6 samples.

Results

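Retinoic acid, the hormone-like product of vitamin A, was followed here through 9 genes of its synthesis (RDH10, ALDH1A1, ALDH1A2, ALDH1A3), its binding and carriage (RBP4, CRABP1, CRABP2) and its breakdown (CYP26A1, CYP26B1) in stallion testes after dexamethasone. A probe belonged to the set if the gene table for the array gave it exactly 1 of these symbols. This found 8 probes, 1 for each of 8 genes, among 53423 probes printed once, of which 23472 have exactly 1 symbol. CRABP1 was not found under a single symbol and was not analysed here. The genes were chosen by name, with earlier results of these data known.

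The testicular parenchyma came from 6 adult stallions after 10 days of acclimation. Of these, 3 received 0.1 mg/kg dexamethasone, a synthetic glucocorticoid, by intravenous injection, and 3 control stallions received saline. Testes were taken 12 h later, and total RNA of each stallion was read on 1 human CodeLink array, so horse transcripts were measured with probes designed for human ones. Stallions are numbered 1 to 3 within each group for naming only.

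Retinol reaches tissues in blood bound to retinol binding protein, is oxidised to retinaldehyde by retinol dehydrogenases and then irreversibly to retinoic acid by the ALDH1A enzymes. Retinoic acid is carried in cells by the CRABP proteins, acts through nuclear receptors of the RAR and RXR families and is degraded by CYP26 enzymes. In the mammalian testis it drives the differentiation of spermatogonia and their entry into meiosis, and its level is set by local synthesis and breakdown in somatic and germ cells. These sentences are background.

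No gene of the set passed the test for a difference between dexamethasone and saline stallions, and the groups overlapped for each of the 8 probes. The probes of CYP26B1, CRABP2, RBP4 and ALDH1A2 were above background on all 6 arrays, and that of RDH10 on 5. ALDH1A3 and CYP26A1 exceeded background on 0 arrays, and ALDH1A1 exceeded it on 1, that of a dexamethasone stallion. Of the 5 probes tested, 3 lay lower and 2 higher with dexamethasone, by at most 0.19 on the log2 scale. Over all 24590 probes tested, 52.5% lay lower with any size of difference. Among the 5 probes tested RBP4 had the widest spread between stallions, and its 6 values formed a low and a high set of 3 that cut across the treatment. All 3 low values came from the first of 2 runs of slide numbers, and the part of the run was not tested.

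A spot counts as above background when its signal strength, which divides the mean of the spot by its noise level, reaches 1. Between 42.5% and 47.8% of all probes did so per array, and 44.5% of probes did so on none. CYP26B1 had the strongest signal relative to its noise, at 15.2 to 26.6. CRABP2 followed at 3.00 to 4.86 and RBP4 at 1.87 to 3.34. ALDH1A2 stayed between 1.38 and 1.49, and RDH10 between 0.986 and 1.16, so that its spots straddled the limit. ALDH1A1 lay at 0.612 to 1.01, CYP26A1 at 0.683 to 0.921 and ALDH1A3 at 0.619 to 0.794. How well each human probe matches the horse transcript was not examined, so a probe near background does not show that its gene is silent, and levels of different probes are not compared.

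**Figure D1:**
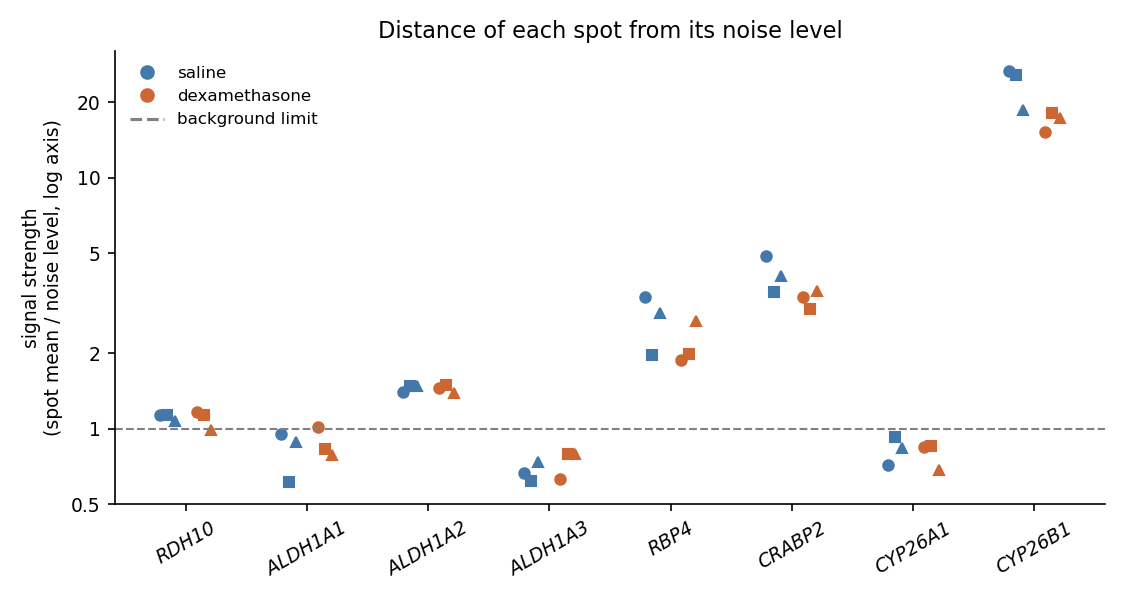
Signal strength of the 8 probes on each of the 6 arrays, on a log axis (spot mean over noise level). Blue marks saline and orange dexamethasone stallions, circles, squares and triangles mark stallions 1, 2 and 3 of the group, and the dashed line at 1 is the limit for a spot above background. CYP26B1 lies far above the line on every array, RDH10 lies on it, and ALDH1A3 and CYP26A1 lie below it on every array.

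Synthesis begins with RDH10, which oxidises retinol to retinaldehyde. Its normalised log2 intensity was 6.57, 6.71 and 6.43 in dexamethasone stallions 1, 2 and 3, and 6.48, 6.56 and 6.54 in the saline stallions. The saline values fell inside the range of the dexamethasone values, whose highest and lowest were stallions 2 and 3. Mean levels were 6.57 ± 0.14 with dexamethasone and 6.53 ± 0.04 with saline (SD, n = 3 each). The difference was 0.05 ± 0.09 (log2, SE), with a 95% interval from -0.16 to 0.25. The direction rested on dexamethasone stallion 2, without which the difference was -0.025.

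ALDH1A2 encodes a retinaldehyde dehydrogenase that makes retinoic acid. Its normalised log2 intensity was 6.95, 7.03 and 7.00 in the dexamethasone stallions and 6.73, 6.91 and 6.97 in the saline stallions. The dexamethasone values lay close together, saline stallion 1 was the lowest of the 6, and saline stallion 3 lay inside the dexamethasone range. The means were 6.99 ± 0.04 and 6.87 ± 0.13 (SD, n = 3 each), a difference of 0.12 ± 0.09 (log2, SE) with a 95% interval from -0.08 to 0.32. Without saline stallion 1 the difference was 0.05. With plain background subtraction, which does not add the offset that compresses dim spots, it was 0.22 ± 0.14 (SE).

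The other members of the ALDH1A family lay at or below the background limit. ALDH1A1, whose enzyme oxidises retinaldehyde among other aldehydes, read 6.39, 6.12 and 6.12 in the dexamethasone stallions and 6.27, 5.77 and 6.19 in the saline stallions (log2). Only dexamethasone stallion 1 was above background, at a signal strength of 1.01. ALDH1A3, a retinaldehyde dehydrogenase too, read 5.83, 6.10 and 6.10 against 5.89, 5.80 and 6.04, with no spot above background. No fold is given for either gene, since these values bound the signal only from above, and neither was tested.

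Among the binding proteins, RBP4 encodes the retinol binding protein of blood plasma, which is secreted mainly by the liver and carries retinol to target tissues. Its normalised log2 intensity was 7.42, 7.37 and 7.92 in dexamethasone stallions 1, 2 and 3 and 7.91, 7.45 and 7.92 in the saline stallions. The low set held dexamethasone stallions 1 and 2 and saline stallion 2, within 0.08 of each other, and the high set held dexamethasone stallion 3 and saline stallions 1 and 3, within 0.01. On the scaled intensity deposited by the authors, a linear scale on which each array's median is about 1, the low set read 4.30, 3.99 and 4.59 and the high set 7.47, 7.14 and 7.36. All 6 spots were above background. The low set lay within the first of the 2 runs of slide numbers described below. Both stallions of the second run were in the high set, with saline stallion 1 of the first run. The part of the run in these sets was not tested.

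The treatment groups of RBP4 averaged 7.57 ± 0.31 with dexamethasone and 7.76 ± 0.27 with saline (SD, n = 3 each). The difference of -0.19 ± 0.17 (log2, SE) was smaller than either SD, and its 95% interval ran from -0.57 to 0.19, or 0.675 to 1.14 as a fold. The residual SD of RBP4 within groups was 0.29, higher than in 96.3% of all probes tested, against the 31.6th to 62.5th percentile for the other 4 members tested. The value moved with single stallions. It was -0.36 without dexamethasone stallion 3, -0.35 without saline stallion 2 and -0.09 without dexamethasone stallion 2, with limma adjusted p of 0.986 or more when each stallion was left out in turn.

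**Figure D2:**
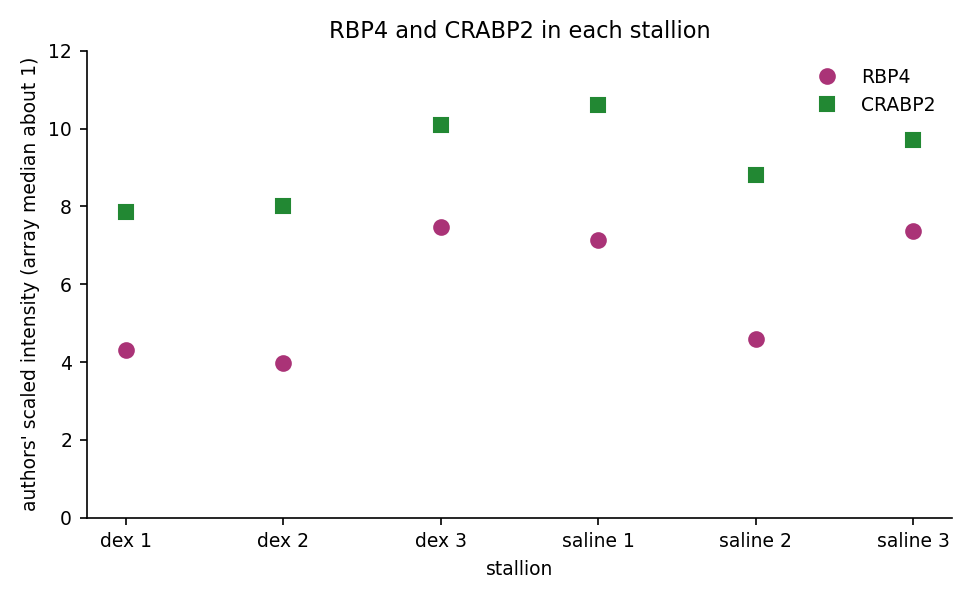
Scaled intensity as deposited by the authors (linear scale, array median about 1) of RBP4 (circles) and CRABP2 (squares) in each of the 6 stallions, dex being dexamethasone. RBP4 forms a low set from 3.99 to 4.59 and a high set from 7.14 to 7.47, and each set holds stallions of both groups. The 3 stallions that are low for RBP4 are also the 3 lowest for CRABP2.

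CRABP2, a cellular carrier that delivers retinoic acid to its receptors in the nucleus, read 8.10, 8.13 and 8.27 in the dexamethasone stallions and 8.36, 8.16 and 8.23 in the saline stallions (normalised log2). Dexamethasone stallions 1 and 2 were the lowest, and dexamethasone stallion 3 lay above saline stallions 2 and 3. The means were 8.17 ± 0.09 and 8.25 ± 0.10 (SD, n = 3 each), a difference of -0.08 ± 0.09 (log2, SE) with a 95% interval from -0.28 to 0.12. This was the narrowest relative spread of the set on the authors' linear scale, where the highest stallion, at 10.6, was 1.35-fold above the lowest, at 7.86. Without saline stallion 1 the difference was -0.03, and with each array scaled to a common median it was -0.19. The 3 stallions with the lowest CRABP2 were those of the low set of RBP4, on the authors' scale and under each background correction and scaling tried. This match of order was seen in the data and was not tested.

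Breakdown is represented by CYP26A1 and CYP26B1, cytochrome P450 enzymes that hydroxylate retinoic acid. CYP26B1 is known for holding retinoic acid low in the fetal mouse testis, where it delays the entry of germ cells into meiosis. Its normalised log2 intensity was 10.41, 10.72 and 10.67 in the dexamethasone stallions and 10.78, 10.79 and 10.62 in the saline stallions. Saline stallions 1 and 2 were the highest and dexamethasone stallion 1 the lowest, while saline stallion 3 lay below dexamethasone stallions 2 and 3. On the authors' linear scale the same stallions read 44.2, 60.1 and 61.9 with dexamethasone and 67.5, 65.4 and 59.0 with saline, or 55.4 ± 9.75 against 64.0 ± 4.42 (SD, n = 3 each).

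For CYP26B1 the means of 10.60 ± 0.17 and 10.73 ± 0.10 (SD, n = 3 each) gave a difference of -0.13 ± 0.10 (log2, SE) and a 95% interval from -0.36 to 0.10, or 0.777 to 1.07 as a fold. Without dexamethasone stallion 1 the difference was -0.04. With each array scaled to a common median in place of quantile normalisation, CYP26B1 differed by -0.29 ± 0.13 (SE, limma adjusted p = 0.659), and the median of all probes tested then shifted to -0.08. CYP26A1 read 6.10, 6.15 and 5.89 with dexamethasone and 6.02, 6.31 and 6.17 with saline (log2). No spot of CYP26A1 was above background, and it was not tested. In the horse gene table of the assembly TB-T2T, CYP26A1 and RBP4 lie on the same chromosome, with 4 protein-coding genes between them.

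**Figure D3:**
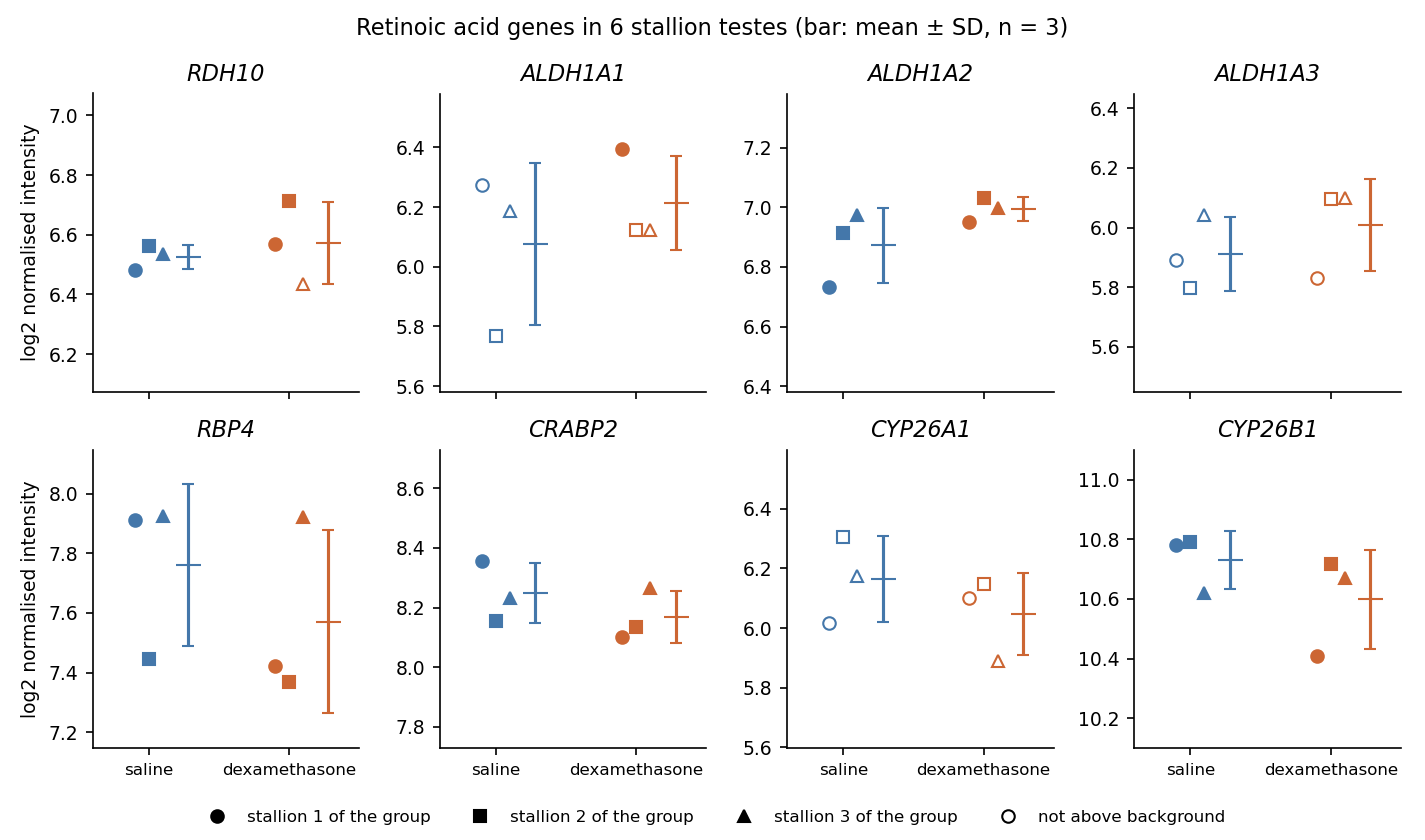
Normalised log2 intensity of the 8 probes in saline (blue) and dexamethasone (orange) stallions; each panel spans 1 log2 unit. Circles, squares and triangles mark stallions 1, 2 and 3 of the group, open symbols spots that are not above background, and bars the mean ± SD (n = 3). The groups overlap in every panel, and RBP4 shows a low and a high set of values in both groups.

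The test was limma's moderated test on the log2 scale over all 24590 probes that were above background on at least 3 arrays, with Benjamini-Hochberg adjustment. The adjusted p was 0.999 for each of the 5 members tested. None had an unadjusted limma p under 0.05, against 3.29% of all probes. Over all probes 0.00407% passed the adjusted p, which is 1 probe and no member. For 0 of the 5 members did the groups not overlap, against 9.27% of all probes. With the setting used here the 5 intervals lay within 1.5-fold in either direction. The scale understates the change of dim probes, so the transcripts may have changed by more. The lower limit of RBP4, -0.567, was close to 1.5-fold, which is 0.585 on the log2 scale. RBP4 differed by -0.26 ± 0.26 (SE) with plain background subtraction and by -0.30 ± 0.28 with the authors' values, so its bound is not given for other settings. A single gene read in 3 stallions against 3 cannot give an exact two-sided permutation p below 0.1. In whole tissue, fewer cells of a type and less RNA per cell cannot be told apart.

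The slide numbers form 2 runs, the first with stallions 1 and 2 of each group and the second with stallion 3 of each group. Within the first run the log2 differences were 0.12 for RDH10, 0.17 for ALDH1A2, -0.28 for RBP4, -0.14 for CRABP2 and -0.22 for CYP26B1. Within the second, 1 stallion against 1, they were -0.10, 0.02, -0.00, 0.04 and 0.05 in the same order. RDH10, CRABP2 and CYP26B1 thus had opposite signs in the runs, and whether the runs differ was not tested. With the run as a block the differences were those given above, with limma adjusted p = 0.998 for each. The SE of RBP4 was then 0.13, against 0.17 without the block.

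Across the 6 arrays none of the 6 pairs of members computed had a correlation with an adjusted p under 0.05. Pearson and Spearman correlations of the log2 values were computed for the 6 pairs among RDH10, ALDH1A2, CRABP2 and CYP26B1. RBP4 was left out after its values were seen, because they form separate sets. Its pairs, among them that with CRABP2, were not computed. The largest correlation of the 6 pairs was between RDH10 and CRABP2, with r = -0.70 (exact permutation p = 0.114, adjusted over the 6 pairs 0.442). Their rho was -0.89 (exact permutation p = 0.0333, adjusted over the 6 pairs 0.20). Without the 2 stallions farthest from the median of RDH10, r was -0.99 over 4 stallions. CRABP2 and CYP26B1 had r = 0.49 (exact permutation p = 0.335, adjusted 0.498) and rho = 0.37 (exact permutation p = 0.497, adjusted 0.79), and r turned to -0.71 without the 2 stallions farthest from the median of CRABP2. All pairs share the arrays and their normalisation. CYP26B1 was taken for a search of like patterns because its probe had the highest signal, which says nothing of transcript levels. The probes most like it were those of LOC100132078, BNIP5 and CDK8, each with r of 0.99 or more over 6 arrays. They are the top 3 of 11010 probes searched, a search in which high values are to be found with so few arrays.

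The rest of the pathway was described with 3 further lists, of other retinoid enzymes and carriers, of receptors and cofactors, and of genes known to respond to retinoic acid. Of their 68 symbols 60 had a probe with exactly 1 symbol and 32 genes were tested, each by its brightest tested probe. With the setting used here none passed limma's adjusted p (0.999 for each) and none had an unadjusted limma p under 0.05. Their unadjusted p under the alternatives is not given here.

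Of the other enzymes and carriers, 16 of 35 genes with a probe were tested. Of these 11 lay lower and 5 higher with dexamethasone, and their median log2 difference was -0.05 against -0.01 for all probes tested. Of all probes tested 52.5% lay lower. With each array scaled to a common median 15 lay lower and 1 higher, with a median of -0.098. Of all probes tested 77.2% then lay lower, with a median of -0.083. With the filter of all 6 arrays 6 of 11 lay lower with a median of -0.017, and without saline stallion 2 the median was -0.027. Dexamethasone and saline values did not overlap for 6 of the 16, against 9.27% of all probes. These were RDH16, DGAT1, ADH1C, RLBP1 and CYP26C1, which were lower, and DHRS3, which was higher. Several gaps were narrow. The highest dexamethasone and lowest saline values were 9.004 and 9.007 for CYP26C1, 7.89 and 7.90 for RLBP1, and 10.57 and 10.63 for DGAT1. With dexamethasone ADH1C was above background on 2 of 3 arrays. This count was not computed under the alternatives. RDH16, a retinol dehydrogenase, read 6.84, 7.04 and 6.82 with dexamethasone and 7.11, 7.13 and 7.05 with saline. Its difference was -0.20 ± 0.09 (log2, SE), and from -0.37 to -0.16 under the 17 alternatives. DHRS3, which reduces retinaldehyde back to retinol, read 8.47, 8.46 and 8.82 against 8.38, 8.28 and 8.45, a difference of 0.21 ± 0.11 (log2, SE). The saline value of stallion 3 came close to the lower dexamethasone values of DHRS3, and without dexamethasone stallion 3 the difference was 0.09. The other DHRS3 probes were above background on 0 arrays.

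DGAT1, an acyltransferase of triglyceride synthesis that can also esterify retinol, differed by -0.14 ± 0.08 (log2, SE). ADH1C, an alcohol dehydrogenase, differed by -0.12 ± 0.08. Under the alternatives DGAT1 ranged from -0.30 to -0.09 and ADH1C from -0.32 to -0.07. CYP26C1, a further retinoic acid hydroxylase, was above background on all 6 arrays and differed by -0.05 ± 0.08. STRA6, the membrane receptor for RBP4, differed by 0.08 ± 0.10 at 8.03 ± 0.04 against 7.95 ± 0.16 (SD, n = 3 each). The sign of STRA6 turned to -0.023 with common-median scaling and to -0.0080 without saline stallion 1, and without saline stallion 2 it was 0.16. LRAT, the main retinol esterifying enzyme, was above background on 0 arrays.

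Of the receptors and cofactors, 7 of 10 genes with a probe were tested, 5 lower and 2 higher, with a median of -0.02. This median turned to 0.028 without dexamethasone stallion 2 and to 0.011 without saline stallion 2, each with 3 higher and 3 lower. RARA differed by 0.03 ± 0.09, RARB by -0.08 ± 0.09 and RARG by -0.02 ± 0.09 (log2, SE), all above background on the 6 arrays. The sign of RARA turned with common-median scaling and without dexamethasone stallion 1, and that of RARG without saline stallion 2 or dexamethasone stallion 3. Among the RXR partners, RXRG differed by -0.05 ± 0.12, or 0.06 without dexamethasone stallion 2, and the probes of RXRA and RXRB were above background on 0 arrays. PPARD, a fatty acid receptor, differed by -0.06 ± 0.18, from 2 usable values per group. The coactivator gene NCOA2 differed by -0.00 ± 0.09, with either sign among the alternatives, and NRIP1, a corepressor, had the largest difference of this list at 0.20 ± 0.10, with groups that overlapped.

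Of the retinoic acid responsive genes, 9 of 15 with a probe were tested. The list was not sorted by whether retinoic acid raises or lowers a gene, so its counts give no direction of that response. With quantile normalisation 8 lay higher and 1 lower, with a median of 0.09, but with each array scaled to a common median 3 lay higher and 6 lower, with a median of -0.04. The authors' values gave 6 higher and 3 lower with a median of 0.028, and the median was 0.026 without dexamethasone stallion 2 and 0.050 without saline stallion 3. Of all probes tested 47.5% lay higher with quantile normalisation. With common-median scaling 77.2% of all probes lay lower, with a median of -0.08. With the authors' values 66.3% lay lower, with a median of -0.065. ZBTB16, a transcription factor of undifferentiated spermatogonia, read 7.67, 8.02 and 7.66 with dexamethasone and 7.66, 7.52 and 7.57 with saline. Its groups were barely apart, the difference was 0.20 ± 0.11 (log2, SE), and without dexamethasone stallion 2 it was 0.08. DUSP6, a phosphatase of MAP kinases, differed by 0.21 ± 0.14, or 0.06 without dexamethasone stallion 2, and MEIS1, a homeobox factor, by 0.16 ± 0.12, or 0.065 without saline stallion 1 or dexamethasone stallion 3. TGM2, a transglutaminase, was the member that lay lower, by -0.17 ± 0.10, and by -0.33 to -0.10 under the alternatives. A second TGM2 probe differed by -0.02 ± 0.11, and the other tested MEIS1 probes by 0.01 ± 0.31 and 0.15 ± 0.15. KIT, the stem cell factor receptor of differentiating spermatogonia, differed by 0.11 ± 0.09, and REC8, a meiotic cohesin subunit, by 0.04 ± 0.10. Both turned sign with common-median scaling, and REC8 also with the authors' values and without dexamethasone stallion 2. STRA8, the classical meiotic target of retinoic acid, was not found under a single symbol and was not analysed here.

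**Figure D4:**
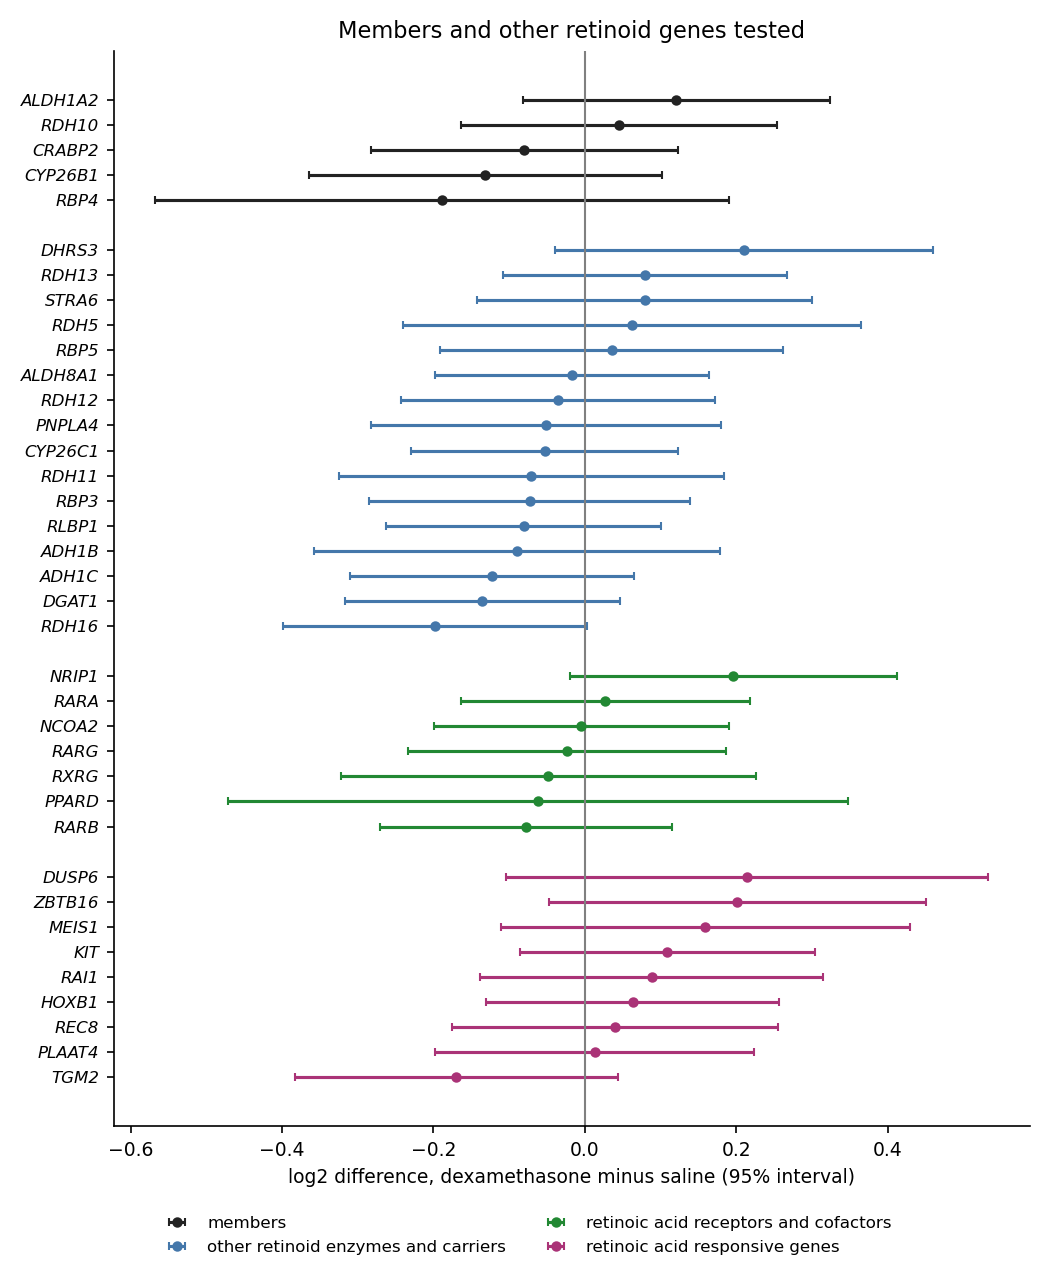
Log2 difference (dexamethasone minus saline) with limma's 95% interval for the 5 members tested (black) and the 32 other retinoid genes tested, by list: other enzymes and carriers (blue), receptors and cofactors (green) and responsive genes (purple). Every interval includes 0, and among the 5 members that of RBP4 is the widest, from -0.57 to 0.19.

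The tissue label was checked against cell type markers. Of all probes 46.2% were above background on 3 or more arrays. The counts that follow are of genes, some with more than 1 probe. Above background on 3 or more arrays were 8 of 9 Sertoli, 6 of 7 Leydig, 5 of 6 spermatogonial, 4 of 6 spermatocyte, 5 of 7 spermatid, 3 of 5 peritubular myoid, 3 of 4 endothelial, 1 of 4 macrophage and 0 of 3 duct epithelial genes with a probe, and SOX9, NR5A1, PRM2 and TNP1 were among those that were not. The 3 tested peritubular myoid genes, ACTA2, CALD1 and MYLK, averaged 7.03 to 7.17 with dexamethasone and 7.23 to 7.27 with saline (log2), so these averages did not overlap, although none passed limma's adjusted p (0.999 for each). MYLK differed by -0.22, CALD1 by -0.20 and ACTA2 by -0.02. The groups overlapped for CALD1 and ACTA2 and not for MYLK, where 9.27% of all probes tested did not overlap. The averages of the spermatogonial, spermatocyte, spermatid and endothelial lists overlapped between the groups. With dexamethasone the CALD1 probe was above background on 1 array and that of ACTA2 on 2. The 3 Leydig genes with 6 usable values averaged 9.56 to 9.84 against 10.04 to 10.21, of which INSL3 differed by -1.21 ± 0.23 (SE, limma adjusted p = 0.999), LHCGR by -0.08 and STAR by 0.01. Of the 6 Leydig genes tested 3 lay lower and 3 higher. The 7 Sertoli genes with 6 usable values averaged 7.90 to 7.96 against 7.93 to 8.02. CLDN11, a Sertoli tight junction gene, was left out of this average because 1 saline value was missing. It lay higher by 0.48 ± 0.13 (SE, limma adjusted p = 0.999). Its groups, with 2 saline values, did not overlap, which held for 9.27% of all probes tested. Of the 8 Sertoli genes tested 6 lay lower and 2 higher, with a median of -0.05. CLDN11 and INSL3 have 2 probes each, and only the brightest tested probe is given. The part of these cell types in the values of CYP26B1, CRABP2 and the other retinoid genes was not tested.

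Under the 17 alternatives of the processing, ALDH1A2, RBP4, CRABP2 and CYP26B1 kept the sign of their difference throughout. RDH10 kept it except without dexamethasone stallion 2, and the filter of all 6 arrays removed its probe.

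**Figure D5:**
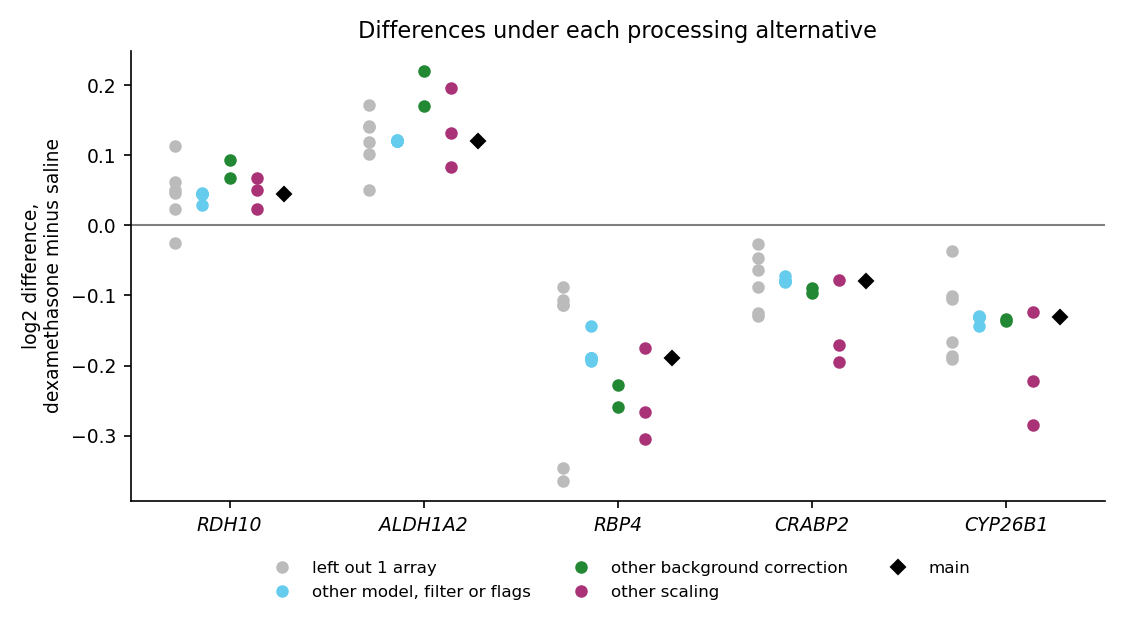
Log2 difference (dexamethasone minus saline) of the 5 members tested under the setting used here (black diamond) and under the alternatives: each array left out (grey), other models, filters or flags (light blue), other background corrections (green) and other scalings (purple). RDH10 alone crosses 0, at -0.025 without dexamethasone stallion 2, and RBP4 moves most, from -0.36 to -0.09.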

How the data were processed

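Arrays of 6 stallions were analysed. Per the labels' protocols, cRNA made with the CodeLink manual kit was read as Alexa-647. The sources used here do not name the scanner software or explain the flags. The files deposited by the authors give spot intensity, local background, a scaled intensity (from the values, the background-subtracted intensity over 1 constant per array) and, per the file headers, a signal strength score. The table of the whole series repeats the scaled intensity.

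Spots with flag M (353 to 610 per array) have no value, and those with C, I or P (320 to 1189) were treated as missing; no member spot had these flags. Intensities were corrected with normexp (offset 50), quantile normalised and log2 transformed (limma 3.58.1, R 4.3.3). Median spot intensity was 72.6 to 79.4 over a background of 47 to 50, so many probes lie near background, and 6 arrays limit the precision. Probes printed more than once were left out as controls. Tested were probes above background on at least 3 arrays with at least 2 values per group, by lmFit and eBayes without covariates, two-sided. Errors are moderated SE. The fit was tested on simulated data. Correlations used exact permutation in Python 3.11.15.

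Named are all member probes, the 4 genes of smallest p per further list, all tested genes of the receptor and cofactor list, the 3 probes most like CYP26B1 and, for non-overlapping groups or known roles, RLBP1, CYP26C1, STRA6, LRAT, KIT, REC8 and STRA8, chosen after values were seen, as were the markers and the antisense probe named. The members and lists were chosen with earlier results of these data known. Alternatives covered background correction, scaling, the authors' scaled intensity (floor 0.1), filters, variance models, the slide run as a block and each array left out. Keeping flagged spots was added after seeing the data. No sequences were used here.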

Additional observations from a re-analysis of the deposited data

How the results depend on the processing

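No member passed limma's adjusted p under any of the 17 alternatives. At an unadjusted limma p under 0.05 there were 0 members, and 1 with median scaling, which was CYP26B1 at -0.29, and 0 to 1 when each array was left out in turn, the 1 being RBP4 without dexamethasone stallion 3 (limma adjusted p = 0.986). RDH10 reversed to -0.025 without dexamethasone stallion 2, was 0.02 to 0.11 without the others, and had no value with a filter of all 6 arrays, which it misses. Over all probes, 1 passed the adjusted p. This fell to 0 under background subtraction, under eBayes with trend and robust settings, and when all 6 arrays had to be above background. Leaving out 1 array gave 0 to 3, with 0 lacking saline stallion 1 or 3, 2 lacking dexamethasone stallion 1 and 3 lacking saline stallion 2. Past the unadjusted p were 808, and 1798 with median scaling and 2075 with no filter, which tests 52902 probes; other causes were not tested. The share of probes lower with dexamethasone was 52.5%, and 77.2% with median scaling and 66.3% with the authors' values. The median of the other enzymes and carriers was -0.05, and -0.15 with the authors' values. No paired analysis was possible because the labels give no replicate numbers that the groups share. Signal over background limits ALDH1A1, ALDH1A3 and CYP26A1, which no setting but the absence of a filter would test, and RDH10, whose spots lie at the limit.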

Other observations

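A probe annotated to ALDH1A2-AS1, an antisense transcript named after ALDH1A2, was above background on all 6 arrays. It read 6.97, 7.10 and 7.16 in dexamethasone stallions 1, 2 and 3 and 7.08, 7.23 and 7.19 in the saline stallions (normalised log2), at 7.08 ± 0.10 against 7.17 ± 0.08 (SD, n = 3 each). The groups overlapped. Whether this human probe reads a horse antisense transcript was not examined.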
